A study of Arabidopsis thaliana with 9 samples.

Results

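The leaf transcriptome of slh1 was compared with that of its parent No-0 at 6 h and 9 h after a shift to a lower temperature, which uses 4 of the 8 libraries of the series. No-0 is the Arabidopsis ecotype Nossen, and slh1 is a mutant in that background with a changed RRS1 gene. At each of these times the slh1 library was set against the No-0 library. Plants of both genotypes had grown for 4 weeks at 28 °C under 10 h light and 14 h dark and were moved to 21 °C when the lights came on, so that both harvests fell in the light period. Each genotype has 1 library per time point and no group is replicated. EXPRSS Tag-seq reads 1 tag per polyadenylated transcript near its 3′ end and keeps the strand. Values are tags on the sense strand scaled to a library of 1000000 sense tags, written TPM.

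The 6 h pair held 393953 sense tags in slh1 against 314319 in No-0, and the 9 h pair held 401734 against 363689. A single tag was thus worth between 2.49 and 3.18 TPM. Chloroplast loci took 14.9% of sense tags in slh1 against 22.6% in No-0 at 6 h, and 16.4% against 16.8% at 9 h, so that the No-0 library at 6 h stood apart from the other 3. Of 21063 sense loci, 2309 had a mean of at least 20 tags over the 4 libraries and were tested. They carried between 80.8% and 85.5% of the sense tags. The gene ATPC2 lay just inside this limit with a mean of 20.0 tags and BG_PPAP just outside it with 19.9 tags.

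RRS1 encodes an intracellular immune receptor that works as a pair with RPS4, its neighbour on the chromosome, and an unusual feature of RRS1 is a WRKY DNA-binding domain. Activation of such receptors leads to salicylate-dependent defence and can stunt growth, and many of these responses are weaker at high temperature. Lowering the temperature of plants also touches the cold acclimation pathway, in which CBF transcription factors bind the C-repeat element, with the core CCGAC, in promoters of COR, KIN and LTI genes. Many of these genes also carry the ABRE, with the core ACGTG, through which abscisic acid acts.

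The promoters of 4 of the 5 cold genes called lower are shown because they hold these elements. The fifth, COR15B, held neither element in its window, which overlaps the COR15A gene. Each run is the 250 bases before the annotated start of the gene in the RefSeq annotation of TAIR10.1, read 5′ to 3′ on the gene's own strand, with CCGAC and ACGTG on either strand in capitals. The KIN2 window is chr5:5211469-5211718 on the plus strand, that of COR15A is chr2:17712331-17712580 on the minus strand, that of LTI78 is chr5:21240467-21240716 on the plus strand, and that of COR413-PM1 is chr2:6949601-6949850 on the plus strand.
KIN2: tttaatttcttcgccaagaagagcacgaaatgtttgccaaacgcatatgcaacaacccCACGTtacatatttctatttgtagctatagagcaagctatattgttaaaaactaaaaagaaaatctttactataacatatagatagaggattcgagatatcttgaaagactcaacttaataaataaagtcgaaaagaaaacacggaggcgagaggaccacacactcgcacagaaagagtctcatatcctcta
COR15A: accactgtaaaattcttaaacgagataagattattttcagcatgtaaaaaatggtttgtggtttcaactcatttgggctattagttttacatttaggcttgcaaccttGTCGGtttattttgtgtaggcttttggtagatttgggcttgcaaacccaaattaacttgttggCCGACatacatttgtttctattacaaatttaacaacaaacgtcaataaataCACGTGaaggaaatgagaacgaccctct
LTI78: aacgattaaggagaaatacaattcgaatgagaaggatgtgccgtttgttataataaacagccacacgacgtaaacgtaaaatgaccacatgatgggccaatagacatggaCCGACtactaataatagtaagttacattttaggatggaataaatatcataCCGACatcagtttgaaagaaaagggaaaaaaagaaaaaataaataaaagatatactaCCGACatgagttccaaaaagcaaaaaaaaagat
COR413-PM1: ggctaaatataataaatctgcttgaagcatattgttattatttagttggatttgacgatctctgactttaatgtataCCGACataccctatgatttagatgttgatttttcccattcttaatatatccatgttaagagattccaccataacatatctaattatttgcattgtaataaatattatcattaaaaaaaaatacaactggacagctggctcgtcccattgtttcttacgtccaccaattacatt
LTI78 held 3 copies of CCGAC, COR15A held 2 and COR413-PM1 held 1, while KIN2 held none in this window and 1 copy of ACGTG. The ACGTG of COR15A lies in a palindrome and was counted on both strands, which gives 2. Among the 2233 tested nuclear genes with such a window, 12.9% held CCGAC and 25.2% held ACGTG. Of the 12 tested genes of the cold list, 5 held CCGAC and 6 held ACGTG.

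Transcripts of RRS1 and RPS4 were at the limit of what these libraries can see. RRS1 (chr5:18326203-18332920) had no tag in any of the 4 libraries. RPS4 (chr5:18321764-18326175), its partner receptor, was seen with 0 tags in slh1 against 1 tag in No-0 at 6 h, and with 1 tag in each genotype at 9 h. A count of 0 allows up to 3 tags, which is between 7.47 and 9.54 TPM in these libraries. The changed gene therefore gave no check of the genotype labels.

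Across all tested genes, slh1 leaves had fewer transcripts of 5 cold-acclimation, 2 lipid transfer and 5 photosystem and light-harvesting genes. They had more of CSR1 and of 7 ribosomal proteins. Of the chloroplast loci, 10 were called lower and 8 higher. edgeR's quasi-likelihood test, with the time point as a block and Benjamini-Hochberg adjustment over the 2309 genes, called 98 genes at an adjusted p below 0.05. Of these, 36 were higher in slh1, which is 1.56% of the genes tested, and 62 were lower, which is 2.69%. All 98 had the same sign at 6 h and at 9 h after TMM scaling. They were called on the mean difference over these same libraries, which favours a shared sign, so this is no replication across times. AT2G19200 was called lower although its TPM at 9 h, before TMM scaling, was slightly higher in slh1 than in No-0. With 1 library per group the error of this test comes from how the genotype difference varied between the 2 time points, pooled across all genes, and the p-values measure that spread only. The number of calls depended strongly on the test, since DESeq2 called 3 genes (CSR1, KIN2 and LP1), and edgeR without the time block called CSR1 alone. AMK2 and AT5G45950 lay just inside the limit at an edgeR adjusted p of 0.050, and AT4G18100 lay just outside it at 0.0502.

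**Figure D1:**
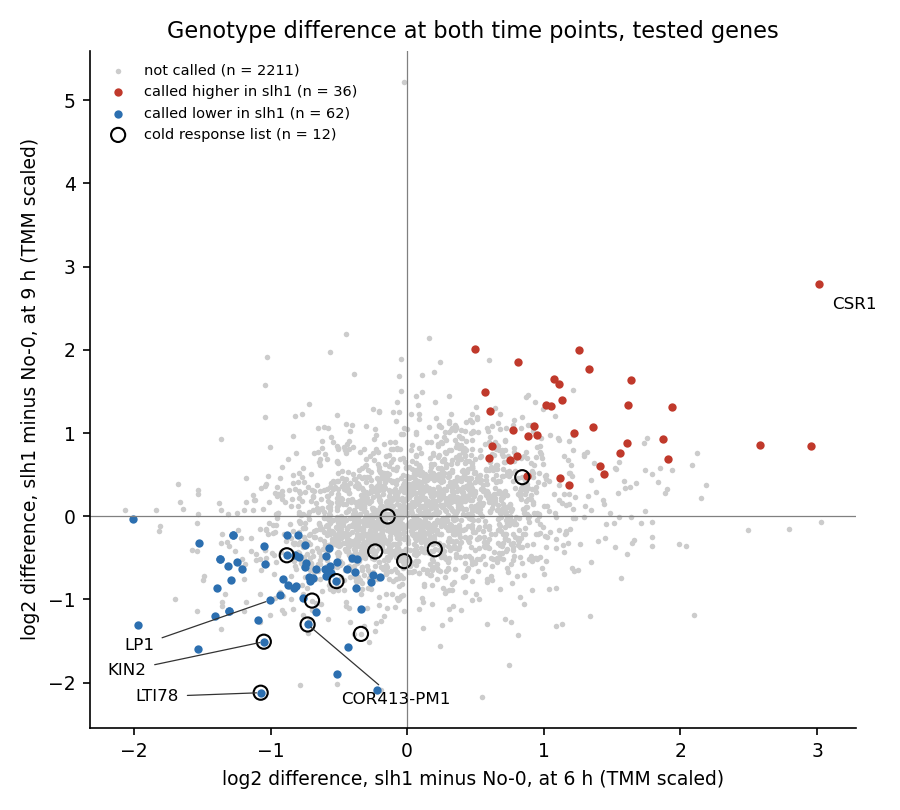
Log2 difference of slh1 minus No-0 at 6 h (horizontal axis) and at 9 h (vertical axis), after TMM scaling, for the 2309 tested genes, with the 36 called higher in red, the 62 called lower in blue and the 12 tested cold genes circled. Of the 12 cold genes, 10 lie below 0 on both axes, and CSR1 stands alone at the upper right with 3.02 at 6 h and 2.79 at 9 h.

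KIN2, a small protein gene induced by cold and abscisic acid, had the lowest adjusted p of the genes that fell. It lies at chr5:5211719-5212743. In slh1 its level was 1684 TPM at 6 h and 1827 TPM at 9 h, against 3053 TPM and 4935 TPM in No-0. Both slh1 libraries were below both No-0 libraries, which gave a log2 fold change of -1.28 ± 0.15 (SE, adjusted p = 3.05e-14 by edgeR). Its tags are partly shared with the neighbouring copy KIN1, which held 24.1 TPM in slh1 against 39.8 TPM in No-0 at 6 h and 17.4 TPM in slh1 against 72.9 TPM in No-0 at 9 h and was below the limit for testing.

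A further 4 genes of the cold list were called lower, and none of the list was called higher. LTI78, also known as RD29A and a marker of cold and drought signalling, had 73.6 TPM in slh1 against 137 TPM in No-0 at 6 h, and 34.8 TPM in slh1 against 148 TPM in No-0 at 9 h (log2 fold change -1.57 ± 0.39, SE, edgeR adjusted p = 0.00434). Both slh1 libraries were below both No-0 libraries, although these values rest on 29 and 14 tags in slh1. COR413-PM1, a cold-regulated protein of the plasma membrane, had 432 TPM in slh1 against 627 TPM in No-0 at 6 h, and 239 TPM in slh1 against 561 TPM in No-0 at 9 h (log2 fold change -1.01 ± 0.20, SE, edgeR adjusted p = 0.000111).

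COR15A and COR15B, tandem neighbours on chromosome 2 that encode cryoprotective proteins of the chloroplast stroma, differed less. COR15A had 1036 TPM in slh1 against 1298 TPM in No-0 at 6 h, and 1212 TPM in slh1 against 1977 TPM in No-0 at 9 h, so that both slh1 values were below both No-0 values (log2 fold change -0.65 ± 0.16, SE, edgeR adjusted p = 0.00385). COR15B had 449 TPM in slh1 against 725 TPM in No-0 at 6 h, and 1232 TPM in slh1 against 1620 TPM in No-0 at 9 h (log2 fold change -0.66 ± 0.17, SE, edgeR adjusted p = 0.00821). For COR15B the groups overlapped across the time points, because the level in slh1 at 9 h exceeded that in No-0 at 6 h. Positions are chr2:17710441-17712330 for COR15A, chr2:17708593-17710433 for COR15B, chr5:21240717-21243644 for LTI78 and chr2:6949851-6951192 for COR413-PM1.

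Over the cold list as a whole, 12 of 24 genes passed the limit of 20 tags, and 5 of these 12 were called lower and 0 higher. The 12 genes had a median log2 fold change of -0.66, against 0.01 over all genes tested, and 11 of the 12 values were negative after TMM scaling. The median was -0.43 at 6 h and -0.66 at 9 h. COR27, a gene that links cold and the clock, was the 1 member above 0, with 7.62 TPM in slh1 against 3.18 TPM in No-0 at 6 h and 137 TPM in slh1 against 94.4 TPM in No-0 at 9 h, and it was not called. Among the members that were not called, COR47 had 88.8 TPM in slh1 against 98.6 TPM in No-0 at 6 h, and 87.1 TPM in slh1 against 223 TPM in No-0 at 9 h. The CBF genes DREB1A and CBF2 had at most 19.2 TPM in any of the 4 libraries and were not tested. Summed over the whole list, the level was 5031 TPM in slh1 against 7139 TPM in No-0 at 6 h, and 6235 TPM in slh1 against 11528 TPM in No-0 at 9 h. With library totals in place of TMM factors 1 cold gene, KIN2, was still called, the list median was -0.53 and 9 of the 12 values were negative.

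Lipid transfer proteins, small secreted proteins of the epidermis and cuticle, were the list with the lowest median. Of 10 genes 5 were tested, all 5 were lower in slh1 at both times after TMM scaling, although LTP5 stood at 366 TPM in slh1 against 337 TPM in No-0 at 6 h before it, 2 were called, and the median was -1.01. LP1, the most abundant of them, had 1740 TPM in slh1 against 3061 TPM in No-0 at 6 h, and 1459 TPM in slh1 against 2791 TPM in No-0 at 9 h (log2 fold change -1.01 ± 0.15, SE, edgeR adjusted p = 2.76e-08). Both slh1 libraries were well below both No-0 libraries. LTP3 had 132 TPM in slh1 against 164 TPM in No-0 at 6 h, and 62.2 TPM in slh1 against 223 TPM in No-0 at 9 h (log2 fold change -1.18 ± 0.31, SE, edgeR adjusted p = 0.00890), so that most of its difference was at 9 h. The lipid transfer genes are related in sequence, and 4 of the 5 had fractional counts, which marks tags split between loci. The 5 markers of epidermis and trichomes summed to 292 TPM in slh1 against 119 TPM in No-0 at 6 h. At 9 h they summed to 289 TPM in slh1 against 198 TPM in No-0. These sums rest on 37.5 to 116 tags per library, and their part in the results was not tested. In leaf tissue, fewer cells of a type and less RNA per cell cannot be told apart.

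**Figure D2:**
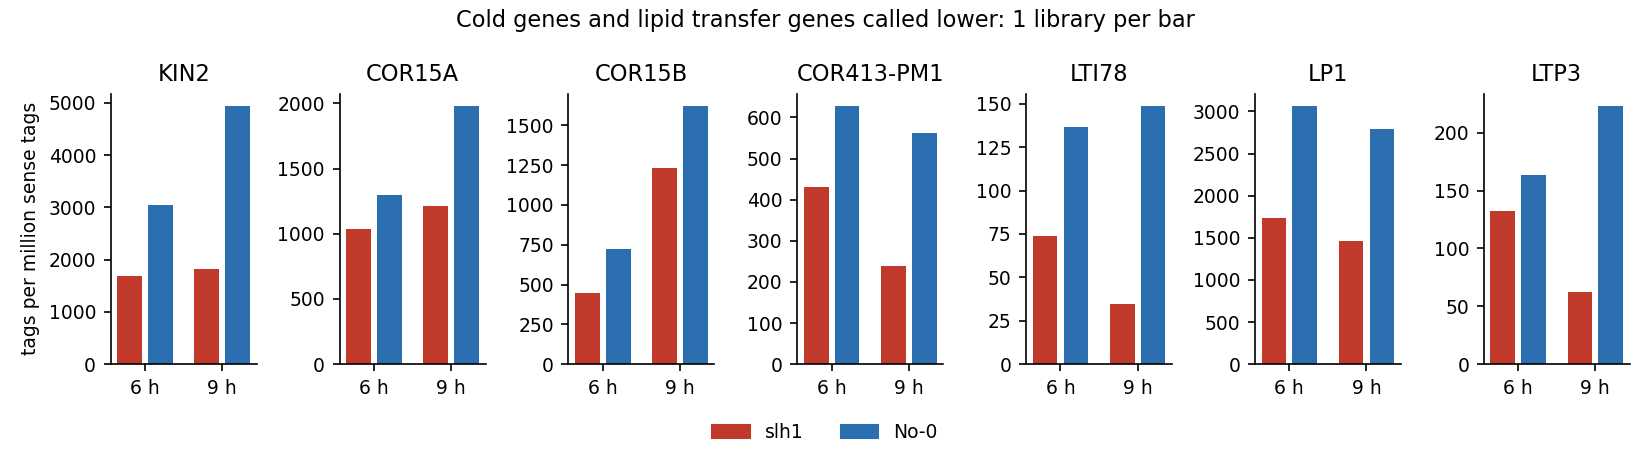
Level in TPM of the 5 cold genes and 2 lipid transfer genes called lower, with 1 bar per library, slh1 in red left of No-0 in blue at 6 h and at 9 h. For all 7 genes the slh1 bar is the shorter one at both times, for KIN2 with 1827 TPM in slh1 against 4935 TPM in No-0 at 9 h.

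Genes of the abscisic acid and dehydration list, which share many promoter elements with the cold genes, did not move together in this way. KIN2 and LTI78, which also respond to abscisic acid or drought, were placed in the cold list. The lists therefore do not separate cold responses from those to abscisic acid and dehydration. Of 19 genes 7 were tested and none was called, 4 were lower and 3 higher in slh1 at both times after TMM scaling, and the median was -0.29. RD22, an abscisic acid-responsive gene, had 536 TPM in slh1 against 528 TPM in No-0 at 6 h, and 264 TPM in slh1 against 382 TPM in No-0 at 9 h. ERD15 had the highest log2 fold change of the list, 0.73, at an edgeR adjusted p of 0.0567. Outside this list and the cold list, AT1G54410, annotated as a dehydrin family protein, was called higher, with a log2 fold change of 0.71. It had 833 TPM in slh1 against 433 in No-0 at 6 h, and 665 TPM in slh1 against 396 in No-0 at 9 h.

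A few transcripts of the light-harvesting antenna were lower in slh1. All 45 genes of the photosystem and light-harvesting list were tested, 5 were called lower and 0 higher, 35 were lower at both times after TMM scaling, and the median log2 fold change was -0.24. The called genes were CAB1, CAB2, CAB3 and LHB1B2, which encode chlorophyll-binding proteins of the photosystem II antenna, and PSAL, a subunit of photosystem I. CAB1 had 6176 TPM in slh1 against 8144 TPM in No-0 at 6 h, and 4534 TPM in slh1 against 6008 TPM in No-0 at 9 h (log2 fold change -0.54 ± 0.14, SE, edgeR adjusted p = 0.00768). The slh1 level was below that of No-0 at each time, but the groups overlapped across times. CAB2 had 5136 TPM in slh1 against 5398 TPM in No-0 at 6 h, and 1112 TPM in slh1 against 1821 TPM in No-0 at 9 h, and it shares tags with CAB1 and CAB3. With library totals in place of TMM factors the list median was -0.11, 32 of the 45 values were negative and none of its genes was called, while the median over all genes was 0.14. None was called with DESeq2, without the time block, with a mean of at least 50 tags or after thinning either. By contrast, genes of the Calvin cycle and photorespiration lay around 0, with 29 of 29 tested, 1 called lower and a median of 0.01. The called gene was FBA1, a plastid aldolase, with 1774 TPM in slh1 against 2615 TPM in No-0 at 6 h and 1217 TPM in slh1 against 1466 TPM in No-0 at 9 h. Outside both lists, HCF136, annotated as a photosystem II stability and assembly factor, was called higher. It had 358 TPM in slh1 against 102 in No-0 at 6 h, and 347 TPM in slh1 against 179 in No-0 at 9 h. AT1G76450, annotated to the photosystem II PsbP family, was also called higher. It had 170 TPM in slh1 against 47.7 in No-0 at 6 h, and 112 TPM in slh1 against 41.2 in No-0 at 9 h.

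CSR1, the catalytic subunit of acetolactate synthase, which makes the first common precursor of the branched-chain amino acids, had the highest fold change of all genes tested. It lies at chr3:18001283-18003749. The edgeR log2 fold change over 6 h and 9 h was 2.91 ± 0.19 (SE, adjusted p = 3.47e-47), with 815 tags in slh1 against 70 in No-0 at 6 h and 746 tags against 92 at 9 h. It was the gene called under all 11 alternative settings. Its antisense strand moved the same way, with 80 tags in slh1 against 15 in No-0 at 6 h and 72 tags against 16 at 9 h. The nearest neighbours, AT3G48550 and AT3G48570, had at most 14 sense tags in each of the 4 libraries, too few to judge a difference. The difference was also present before the shift, with 2193 TPM in slh1 against 245 TPM in No-0 at 0 h.

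The rest of the branched-chain pathway did not follow CSR1. Of 18 genes 8 were tested and the median was -0.02. AT2G43090, annotated as a small subunit of isopropylmalate isomerase in leucine synthesis, was the other gene called, with 256 TPM in slh1 against 121 TPM in No-0 at 6 h and 204 TPM in slh1 against 99.0 TPM in No-0 at 9 h (log2 fold change 0.93 ± 0.29, SE, edgeR adjusted p = 0.0424). The next enzyme, ketol-acid reductoisomerase AT3G58610, had 234 TPM in slh1 against 299 TPM in No-0 at 6 h, and 341 TPM in slh1 against 333 TPM in No-0 at 9 h.

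**Figure D3:**
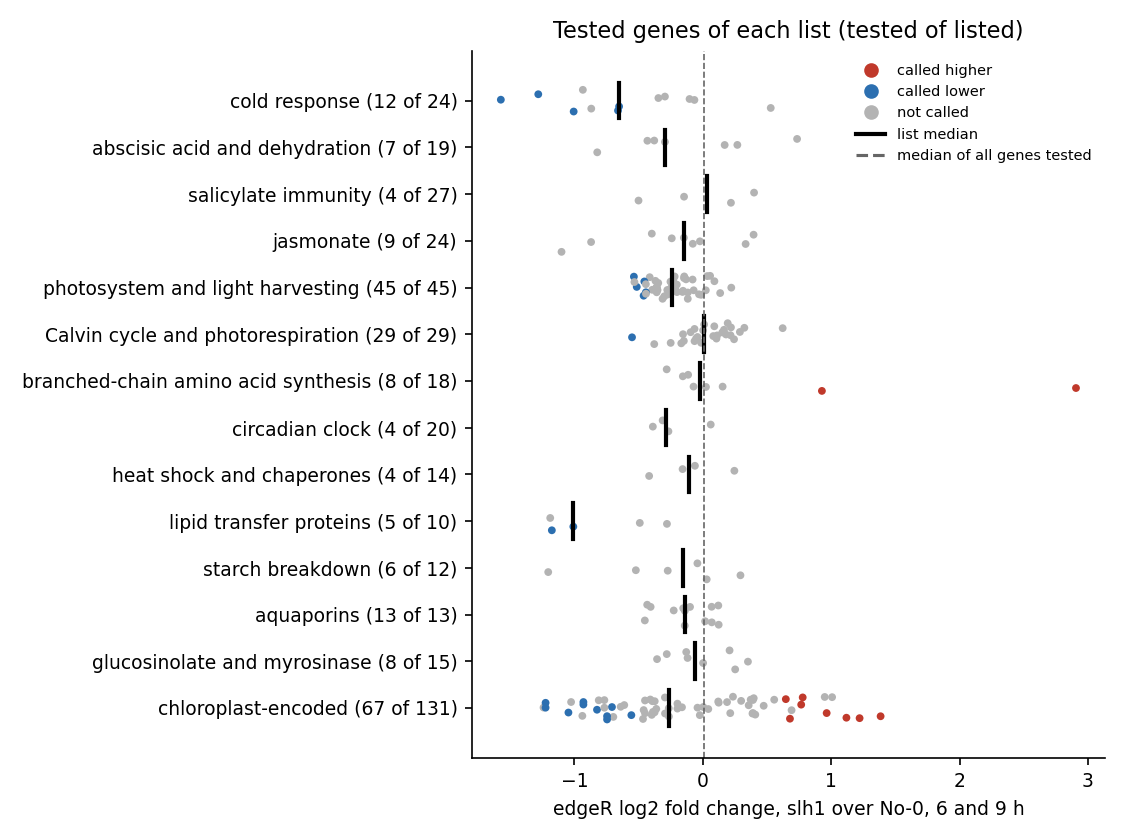
edgeR log2 fold change of slh1 over No-0 (horizontal axis) for the tested genes of each list, with called genes in colour, the list median as a black bar and the median of all tested genes as a dashed line. The cold list has its median at -0.66 and the lipid transfer list at -1.01, the photosystem list clusters at -0.24, and CSR1 is the point at 2.91.

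Of the 36 genes called higher, 7 encode ribosomal proteins. By a narrow product-name rule the cytosolic list held 7 genes, of which 2 were tested and none was called. A wider list, chosen after the values were seen, took every nuclear gene with ribosomal protein in its product, and here 191 of 326 genes were tested, 7 were called higher and 1 lower. Over all 2309 genes tested, 1.56% were called higher and 2.69% lower. The median of the 191 was 0.09, so that most ribosomal protein genes lay near all others. In the wider list 4 genes were called higher with total sense tags and 2 with a mean of at least 50 tags. None was called higher with DESeq2, without the time block or after thinning. RFC3, 1 of the 7, was called under none of the alternative settings. AT5G28060, of the S24e family, had 256 TPM in slh1 against 160 TPM in No-0 at 6 h, and 401 TPM in slh1 against 93.5 TPM in No-0 at 9 h (log2 fold change 1.25 ± 0.27, SE, edgeR adjusted p = 0.000426). Both slh1 libraries were above both No-0 libraries. RPL16B was the member called lower, with 117 TPM in slh1 against 296 TPM in No-0 at 6 h and 200 TPM in slh1 against 235 TPM in No-0 at 9 h.

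The other nuclear genes with the highest fold changes were of low level. AT1G01080, an RNA-binding protein, had 88.8 TPM in slh1 against 31.8 TPM in No-0 at 6 h and 132 TPM in slh1 against 30.2 TPM in No-0 at 9 h (log2 fold change 1.69 ± 0.47, SE, edgeR adjusted p = 0.0145). HD2B, a plant-type histone deacetylase, had 132 TPM in slh1 against 54.1 TPM in No-0 at 6 h and 139 TPM in slh1 against 41.2 TPM in No-0 at 9 h. CAM7, a calmodulin, had 66.0 TPM in slh1 against 22.3 TPM in No-0 at 6 h and 122 TPM in slh1 against 33.0 TPM in No-0 at 9 h. In each of these 3 genes both slh1 libraries were above both No-0 libraries. A cell wall gene was also among them, XTH9, a xyloglucan-modifying enzyme, at 73.6 TPM in slh1 against 15.9 TPM in No-0 at 6 h and 124 TPM in slh1 against 46.7 TPM in No-0 at 9 h. The remaining members of this set were AT2G04520, AT3G49220, AT5G45950, AT1G76450 and AT5G57040, with log2 fold changes between 1.44 and 1.66. On the lower side AT4G32530, AT4G16710, AT3G07480 and AT2G11910 had log2 fold changes between -1.62 and -1.16. AT4G32530 and AT4G16710 each overlap another annotated gene.

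Chloroplast transcripts moved in both directions. Of 131 chloroplast loci 67 were tested, 8 were called higher and 10 lower, and the median was -0.26. With library totals in place of TMM factors 7 were called higher and 2 lower, and DESeq2, edgeR without the time block and the thinned counts each called 0. No names for these loci are used here. ATCG00950, whose counts are identical to those of ATCG01180, held more tags than any other tested locus, with 38737 TPM in slh1 against 81840 TPM in No-0 at 6 h and 47324 TPM in slh1 against 52311 TPM in No-0 at 9 h. The difference was mostly at 6 h, where the log2 difference was -1.27, against -0.22 at 9 h. ATCG00920 with ATCG01210, and ATCG00940 with ATCG01190, are further pairs with identical counts, so that the 10 lower calls come from 7 distinct sets of counts.

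In the other direction, ATCG00030 had 14254 TPM in slh1 against 5499 TPM in No-0 at 6 h, and 13445 TPM in slh1 against 9822 TPM in No-0 at 9 h (log2 fold change 0.78 ± 0.14, SE, edgeR adjusted p = 9.09e-06). ATCG00740 had 590 TPM in slh1 against 200 TPM in No-0 at 6 h, and 436 TPM in slh1 against 195 TPM in No-0 at 9 h. For both loci each slh1 library was above each No-0 library. Leaving out all organelle loci before scaling gave 91 calls, 23 higher and 68 lower.

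**Figure D4:**
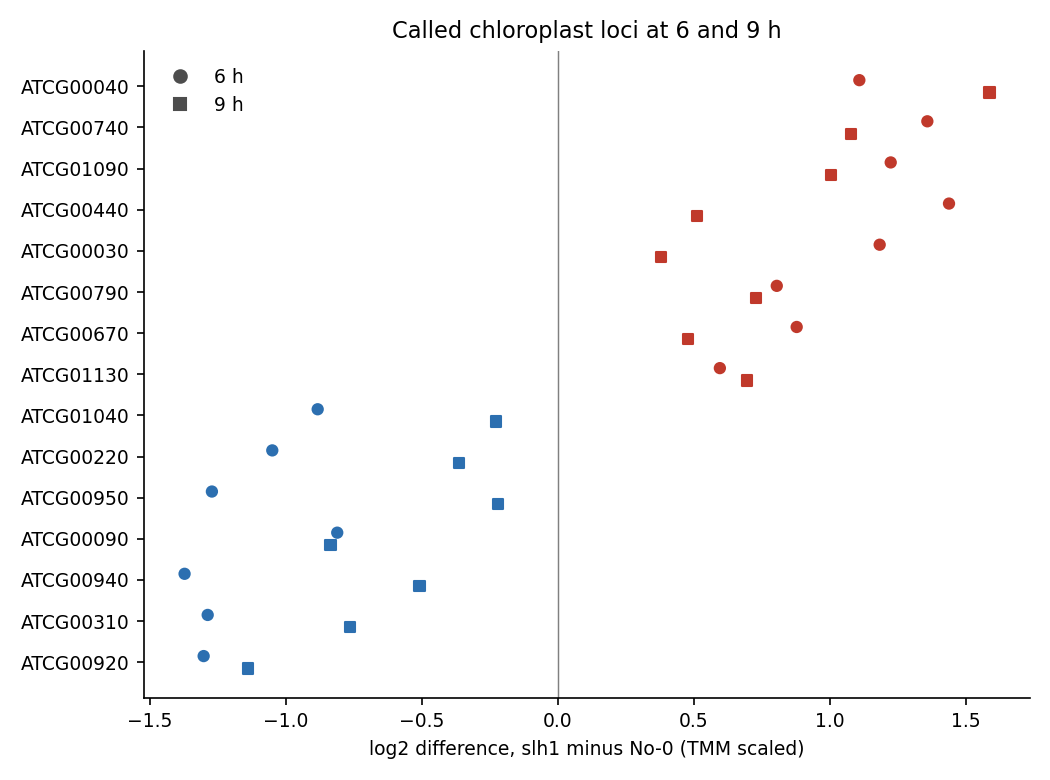
Log2 difference of slh1 minus No-0 after TMM scaling for the called chloroplast loci, with circles for 6 h and squares for 9 h, red for loci called higher and blue for loci called lower, and 1 locus drawn for each pair with identical counts. ATCG00950 lies at -1.27 at 6 h and -0.22 at 9 h, and ATCG00740 lies above 1 at both times.

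A further set of genes that fell shares a sequence feature. Of the 52 nuclear genes called lower, 12 contain a run of at least 15 A on the sense strand, which is 23.1%, against 5.28% of the 2233 tested nuclear genes with a sequence and 0 of the 28 called higher. The 3 windows shown are 30 bases of the sense strand around the longest run, with the run in capitals. AT2G19806 (chr2:8546894-8546923, plus strand) and AT5G24915 (chr5:8577818-8577847, plus strand) are annotated as pseudogenes, and WDL1 (chr3:1258566-1258595, plus strand) is a protein-coding gene of a microtubule-associated protein family.
AT2G19806: aagAAAAAAAAAAAAAAAAAAAAAAAAgct
WDL1: cccAAAAAAAAAAAAAAAAAAAAAAAtcct
AT5G24915: ccAAAAAAAAAAAAAAAAAAAAAAAAAttg
These 3 genes were named after their values were seen. AT2G19806 had 704 TPM in slh1 against 1527 TPM in No-0 at 6 h, and 970 TPM in slh1 against 1392 TPM in No-0 at 9 h. All 12 genes had fractional counts in at least 1 library, as had 98 of the 118 tested genes with such a run. Over all genes tested the share was 28.4%. Over the 118 tested genes with such a run, 81 had a negative log2 fold change and the median was -0.22. Fractional counts mark tags split between loci, so that the 12 genes may share tags and are not separate cases. The paper also describes poly(A) reads in EXPRSS libraries that came from excess primer joined to the adapters. Whether the tags of these loci come from their transcripts, from priming at the runs or from such reads was not tested. The WDL1 run lies close to the annotated start of its gene, at 1258519.

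The salicylate immunity genes, the known output of this receptor pair, had few tags at these times. Of 27 genes 4 were tested and none was called, with a median of 0.04. LURP1, a defence gene, had 52.0 TPM in slh1 against 41.4 TPM in No-0 at 6 h, and 269 TPM in slh1 against 212 TPM in No-0 at 9 h. PCC1, another defence-induced gene, had 145 TPM in slh1 against 248 TPM in No-0 at 6 h, and 635 TPM in slh1 against 684 TPM in No-0 at 9 h. WRKY70, a regulator of salicylate responses, was below the limit for testing, with 33.0 TPM in slh1 against 12.7 TPM in No-0 at 6 h and 47.3 TPM in slh1 against 16.5 TPM in No-0 at 9 h. Summed over the list, levels were 475 TPM in slh1 against 458 TPM in No-0 at 6 h, and 1385 TPM in slh1 against 1333 TPM in No-0 at 9 h. The sums of the 2 genotypes were thus close at each time, and both were higher at 9 h than at 6 h. They hide members that went different ways. Of the 4 tested genes, 2 were higher in slh1 at both times after TMM scaling, 1 was lower at both and 1 changed sign. The lower one was PCC1, the most abundant of them. ACD6 had 128 TPM in slh1 against 79.5 TPM in No-0 at 6 h, and 180 TPM in slh1 against 135 TPM in No-0 at 9 h.

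The remaining lists held no called gene, apart from those already named. Medians were -0.15 over 9 jasmonate genes, -0.29 over 4 clock genes, -0.11 over 4 heat shock genes, -0.16 over 6 starch breakdown genes, -0.14 over 13 aquaporins and -0.06 over 8 glucosinolate genes. VSP1, a vegetative storage protein induced by jasmonate, had 102 TPM in slh1 against 103 TPM in No-0 at 6 h, and 41.1 TPM in slh1 against 165 TPM in No-0 at 9 h. Outside the lists, TIP2;2, a tonoplast water channel named after its values were seen, was called lower with 119 TPM in slh1 against 200 TPM in No-0 at 6 h and 149 TPM in slh1 against 275 TPM in No-0 at 9 h.

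The 0 h and 24 h libraries give the levels of the same genes before and later after the shift. At 0 h, before the shift, KIN2 had 1012 TPM in slh1 against 868 TPM in No-0, and at 24 h it had 413 TPM in slh1 against 443 TPM in No-0. Its difference at 6 h and 9 h was lower than that at 24 h by 1.34 ± 0.31 on the log2 scale (SE, edgeR over 8 libraries, adjusted p = 0.00160) and lower than that at 0 h by 1.51 ± 0.29 (adjusted p = 0.000127). COR15A was lower in slh1 at the other times too. It had 648 TPM in slh1 against 1111 in No-0 at 0 h, and 34.0 TPM in slh1 against 65.6 in No-0 at 24 h. The change of its difference was 0.12 ± 0.57 against 24 h and 0.12 ± 0.31 against 0 h (SE, edgeR). LTI78, COR15B and COR413-PM1 were also lower in slh1 before the shift. At 0 h LTI78 had 150 TPM in slh1 against 262 TPM in No-0, and COR15B had 369 TPM in slh1 against 576 TPM in No-0. COR413-PM1 had 384 TPM in slh1 against 469 TPM in No-0 at 0 h. The change against 0 h was -0.77 ± 0.64 for LTI78, -0.03 ± 0.35 for COR15B and -0.73 ± 0.38 for COR413-PM1 (SE, edgeR). Across the 2115 genes tested in the 8 libraries, 107 (5.06%) differed in this way from 24 h and 29 (1.37%) from 0 h. Both contrasts reuse the 6 h and 9 h libraries from which genes such as KIN2 were picked, so that they are no independent evidence for those genes. At 0 h and at 24 h each genotype has 1 library, so that the error comes from 6 h against 9 h, pooled across genes. The p-values therefore measure no spread at 0 h or 24 h.

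**Figure D5:**
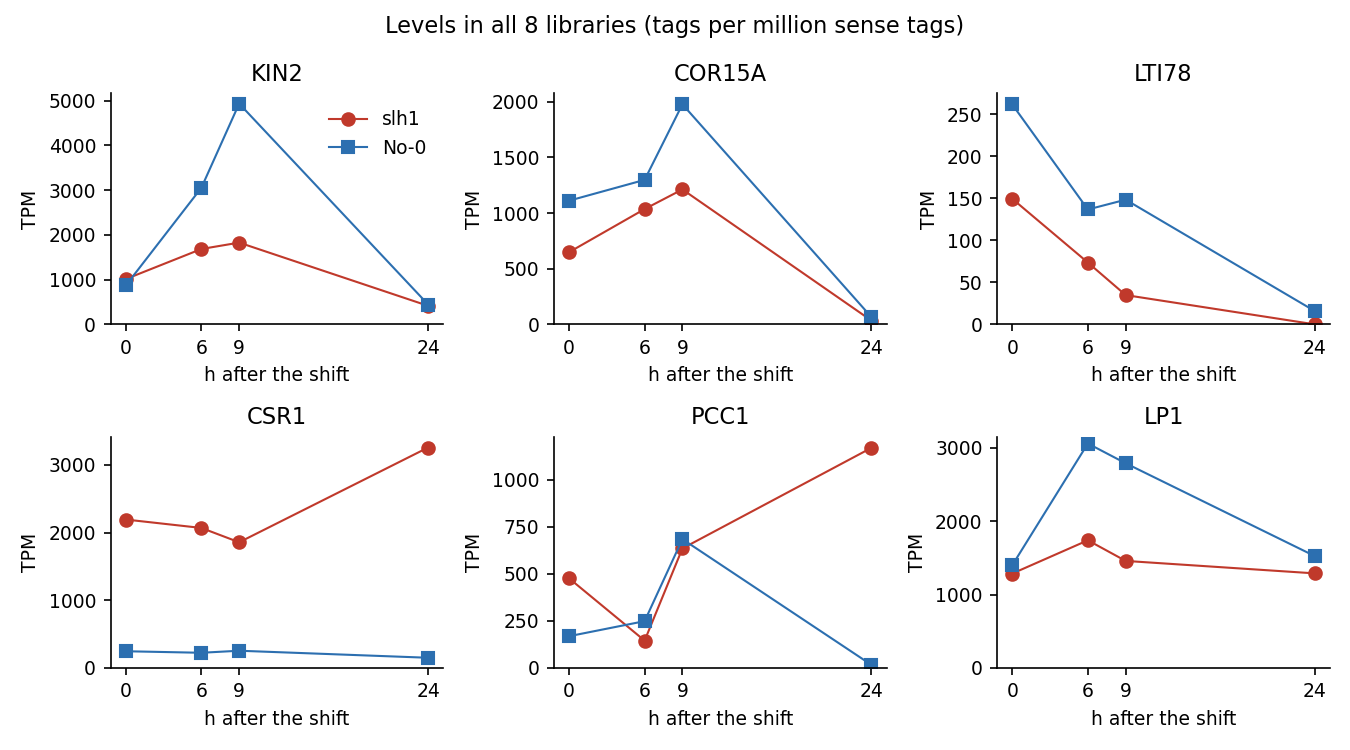
Level in TPM (vertical axis) at 0, 6, 9 and 24 h after the shift for 6 genes, with slh1 in red circles and No-0 in blue squares and 1 library per point. The KIN2 lines are further apart at 6 h and 9 h than at 0 h and 24 h, at 1684 TPM in slh1 against 3053 TPM in No-0 at 6 h, whereas the CSR1 lines are apart at all 4 times.

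Counting error alone gives another view of the same 4 libraries. For each gene and time the exact 95% interval of the ratio of slh1 to No-0 was taken, with library totals as the scale. It lay above 1 at both times for 151 genes (6.54%) and below 1 at both times for 87 genes (3.77%), and 84 of the 98 edgeR calls were among these. With TMM effective library sizes these counts were 86 above and 159 below, so that the balance of directions follows the scaling. The interval lay on opposite sides at the 2 times for 44 genes. Of all 2309 genes, 1403 had the same sign at both times, 920 higher and 483 lower, and TMM scaling gave 701 higher and 714 lower. Across genes, which are not independent replicates, the differences at 6 h and at 9 h had a Pearson r of 0.281 and a Spearman rho of 0.286, given as a description with no test.

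Marker genes matched the leaf label. The 4 mesophyll markers summed to 29253 TPM in slh1 against 29782 TPM in No-0 at 6 h and 23509 TPM in slh1 against 29644 TPM in No-0 at 9 h. The 5 root markers had at most 11.3 TPM in all and the 4 pollen and flower markers at most 26.7 TPM. The 5 guard cell markers, of a cell type found in leaves, had at most 14.9 TPM. Phloem markers summed to 112 TPM in slh1 against 38.2 TPM in No-0 at 6 h and 67.2 TPM in slh1 against 49.5 TPM in No-0 at 9 h, and their part in the results was not tested.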

How the data were processed

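EXPRSS Tag-seq libraries were analysed for slh1 and No-0 leaves at 6 h and 9 h, with those at 0 h and 24 h for contrasts. Groups follow the titles, and 1 sample of unassigned reads was not used. The authors deposited an expected count of tags per locus, split equally where a read fell on several genes, after quality filtering and alignment to TAIR10. The methods name BWA for the paired reads of these libraries and Bowtie for the other tag libraries, and the submitters' notes name Bowtie 0.12.8 and Novoalign 2.08.03. Which of them made these tables of single reads was not settled. Rows with a prefixed locus were read as antisense and left out. Of 21063 sense loci, 98.5% matched the TAIR10.1 annotation, which gave symbols, positions and sequences. The files hold no molecular identifiers, so intervals and floors cover counting error only.

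Counts were rounded and tested with edgeR 4.0.16 in R 4.3.3 (TMM, time block, mean of at least 20 tags, adjusted p below 0.05), after checks on simulated data. The model had 1 residual degree of freedom, and its error was taken from the trend across genes. DESeq2 1.42.0 and limma 3.58.1 served as alternatives. Plain log2 differences used a pseudocount of 5 TPM, and TMM-scaled ones edgeR's effective library sizes. Named genes were RRS1 and RPS4, up to 12 called genes in each direction by fold change, and of each list up to 4 genes by level and every gene called. Of these, 1 gene is not reported here. Genes that were named otherwise were chosen after their values were seen. The comparison, lists and rules were chosen with earlier results of these data known. Genes that share tags with a near-identical copy are uncertain, and 49 of the 98 called genes had fractional counts.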

Additional observations from a re-analysis of the deposited data

Results flagged for a closer look

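The genotype difference at 6 h and 9 h was not the same as that at 24 h for a set of named genes, by an edgeR contrast over 8 libraries with adjusted p below 0.05. On the log2 scale, the difference at 6 h and 9 h minus that at 24 h was -1.70 for CSR1, 4.24 for AT1G01080, 3.26 for AT5G57040, 4.75 for HD2B, -1.34 for KIN2, -0.93 for LP1, -0.90 for FBA1 and 1.36 for TGG1. It was -6.83 for PCC1, -6.25 for LURP1 and -4.15 for ACD6, 3 defence genes that were not called at 6 h and 9 h. Among chloroplast loci it was -2.01 for ATCG00920 and its copy ATCG01210, -2.05 for ATCG00310, -1.46 for ATCG00950 and its copy ATCG01180, -1.64 for ATCG00090, -1.14 for ATCG00220, 1.05 for ATCG00440, 2.78 for ATCG00740, -1.58 for ATCG00940 and its copy ATCG01190, and -1.20 for ATCG01040. Some of these values rest on few tags at 24 h. In slh1 at 24 h AT1G01080 and HD2B had 1 tag each, and the SEs of their values were 1.27 and 1.18. AT5G57040 had 4 tags there, with an SE of 0.87. In No-0 at 24 h PCC1 had 8 tags, LURP1 had 4 and ACD6 had 7. Each genotype has 1 library at 24 h, so that no spread at 24 h entered these SEs. Genes named for their difference at 6 h and 9 h were picked on libraries that these contrasts reuse.

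Against 0 h the same contrast gave -2.69 for AT3G07480, -1.51 for KIN2, -1.59 for ATCG00920 and its copy ATCG01210, -2.02 for PCC1, 1.18 for ATCG00030 and 1.13 for ATCG00790.

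Between 6 h and 9 h, 4 named genes were past counting error in opposite directions. Each was higher in slh1 at 6 h and lower at 9 h by library totals, with a TMM-scaled log2 difference at 9 h of -0.37 for RBCS1A, -0.18 for RBCS3B, -0.41 for PIP2A and -0.59 for TGG1. At 6 h the TMM-scaled values were -0.13 for RBCS1A, 0.18 for RBCS3B, 0.11 for PIP2A and 0.62 for TGG1, so that RBCS1A was lower at both times on that scale. The difference itself was not tested.

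The antisense tags were outside the comparisons. Of 277 antisense features with a mean of at least 20 tags, 7 were higher in slh1 and 27 lower in slh1 past counting error at both times. The 7 higher features include CSR1, AGP15 and AT1G54410, whose sense tags were also called higher. The 27 lower ones include KIN2 and LP1, whose sense tags were called lower.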

How the results depend on the processing

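The 98 calls became 103 with RLE size factors, 76 with limma-voom, 95 without rounding and 91 without organelle loci. They became 28 (21 higher, 7 lower) with total sense tags, 3 with DESeq2, 1 without the time block, 61 with filterByExpr, 22 with a mean of at least 50 tags, 23 with only whole-count genes and 2 after thinning. DESeq2 had 89 genes at an unadjusted p below 0.05, against 382 for edgeR. The share of calls that were higher was 36.7%, and it was 75.0% with total sense tags, 26.3% with limma-voom, 25.3% without organelle loci, 21.3% with filterByExpr, 54.5% with at least 50 tags and 17.4% with only whole-count genes. Limma-voom called 74 of the 98 genes, RLE 95 and total sense tags 28. Among the named genes, 45 lost their call with DESeq2, 47 without the time block, 41 after thinning, 31 with total sense tags and 1 with RLE size factors. Counting all genes tested as a list, medians changed sign for 5 lists with total sense tags, 4 after thinning, 5 without the 6 h pair and 2 without the 9 h pair, and for at most 3 under each other setting. Leaving out the 6 h pair moved 2 named genes by more than the SD of the 6 h and 9 h values and leaving out the 9 h pair 3. No named gene changed direction in a called state. Same-sign genes numbered 623 with at least 50 tags and 3876 with at least 5 tags, where fewer or more genes entered. Calls against 24 h numbered 38 with total sense tags, 8 with DESeq2 and 59 with filterByExpr, and calls against 0 h 0 with total sense tags, 0 with DESeq2, 11 with limma-voom and 14 with filterByExpr. The cause of these changes was not tested. The labels give no replicate numbers, and the time block of the main test pairs the libraries by time point. Depth limits genes below 20 tags, among them most immunity genes.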

Other observations

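FRO6, a ferric reductase of green tissue, had the highest difference at 9 h, with 52.3 TPM in slh1 against 1.37 TPM in No-0, where it had 114 TPM in slh1 against 102 TPM in No-0 at 6 h. The No-0 value at 9 h is 0.50 tags, and the gene was not called. FSD1, an iron superoxide dismutase, was called lower, and nearly all of its difference was at 9 h, with 42.3 TPM in slh1 against 176 TPM in No-0, against 249 TPM in slh1 against 255 TPM in No-0 at 6 h. SHW1 and PMM were higher in slh1 at 6 h, where each had 3 tags in No-0, and were not called. SHW1 had 99.0 TPM in slh1 against 9.54 TPM in No-0 at 6 h, and 49.8 TPM in slh1 against 49.5 TPM in No-0 at 9 h. PMM had 83.8 TPM in slh1 against 9.54 TPM in No-0 at 6 h, and 64.7 TPM in slh1 against 68.7 TPM in No-0 at 9 h. These genes were chosen after their values were seen.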
